A study of Mus musculus with 91 samples.

Results

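The 10 regulators of corticofugal identity Fezf2, Bcl11b, Sox5, Tbr1, Foxp2, Ldb2, Pou3f1, Pou3f2, Pou3f3 and Bcl6, were followed in single layer 5 (L5) pyramidal neurons (Pyrs) of the mouse primary visual cortex (V1). The 10 genes were taken by name, 1 row each, from a table of 34745 rows. Fezf2 was detected, meaning at least 1 count, in 20 of 47 Pyr←LP neurons and in 32 of 44 Pyr←ORBvl neurons. In Pyr←LP neurons it was often the only gene of the 10 found, in 11 neurons. In Pyr←ORBvl neurons it was accompanied by Pou3f1 in 21 neurons, by Ldb2 in 20 and by Bcl11b in 15, against 2, 8 and 3 Pyr←LP neurons. The Pyr←ORBvl neurons with Fezf2 were deeper, with a median of 651898 counts against 309958. On sums of counts per recording prefix, Bcl6 was the 1 member of 8 tested whose difference passed the threshold, and it was higher in Pyr←ORBvl neurons, as were 0.206% of all genes tested. It entered the test through its counts in Pyr←ORBvl neurons. That call was lost when a near-identical pair of neurons was left out and under other settings given beside it.

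Pyramidal neurons of L5 are commonly divided into subcerebral or pyramidal tract neurons, which send axons out of the cortex to the brainstem, tectum and spinal cord, and intratelencephalic neurons, which stay within the telencephalon. In development, Fezf2 acts high in the programme that sets the subcerebral fate, and Bcl11b (CTIP2) acts after it in axon outgrowth. Sox5 and Tbr1 help to separate corticothalamic from subcerebral fates. Pou3f2 and Pou3f3 are best known from upper-layer neurons, and the other genes are used as regulators or markers of deep-layer projection neurons. Levels of these genes in adult neurons need not follow their roles in development.

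The neurons were wild type (genotype WT) and were taken from brain slices, after whole-cell recording, by drawing the soma with its nucleus into the patch pipette. According to the methods, C57 mice of both sexes and of 8 to 12 weeks were used. A neuron's subtype, Pyr←LP or Pyr←ORBvl, was assigned by the authors from its hyperpolarization-activated current (Ih) and not from its RNA. The names refer to 2 top-down inputs to V1, from the lateral posterior thalamic nucleus (LP) and the ventrolateral orbitofrontal cortex (ORBvl). Neither the projection target nor the mouse of a sequenced neuron is given in the sources used here. Names of neurons begin with a recording prefix. Of 17 prefixes, 14 hold both subtypes. The study's text and a figure legend give different numbers of mice for these neurons, the former below and the latter above the number of prefixes. Whether prefixes share a mouse is therefore not known. If they do, p-values over prefixes may be too small.

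Total counts were between 2545 and 1948982 per Pyr←LP neuron (median 411884) and between 2410 and 1699215 per Pyr←ORBvl neuron (median 445008). The median number of genes detected was 3241 in Pyr←LP neurons and 3980 in Pyr←ORBvl neurons, and shares of neurons are therefore also given at a fixed depth. The pan-neuronal marker Snap25 was detected in all 91 neurons and Slc17a7, the vesicular glutamate transporter, in 35 and 36 neurons. Transcripts of other cells were present in both subtypes. The 5 microglia markers were each found in 16 to 39 Pyr←LP and 21 to 43 Pyr←ORBvl neurons, the 5 astrocyte markers in 3 to 44 and 1 to 37, the 4 oligodendrocyte markers in 0 to 45 and 1 to 43, the 3 GABAergic markers in 1 to 9 and 2 to 11 and the 3 endothelial markers in at most 2 and 1. Averaged within recording prefixes, the share of neurons with a marker was higher in Pyr←ORBvl neurons for all 5 microglia markers (by 4.29 to 20.2 percentage points), with log2 fold changes (Pyr←ORBvl over Pyr←LP) of −0.71 to 0.34. Of the astrocyte markers it was higher for Gfap, Mlc1 and Aldoc (by 1.55, 5.48 and 6.07 points) and lower for Aqp4 and Aldh1l1 (−3.45 and −16.9 points). On sums of counts 3 astrocyte markers could be tested, Gfap (log2 fold change −0.53 ± 1.32), Aldoc (0.34 ± 0.64) and Aldh1l1 (−3.59 ± 1.52). EdgeR called 0 of them, 1 with an unadjusted p under 0.05, and DESeq2 called 1, higher in Pyr←LP neurons. The summed level of the 5 microglia markers ranged from 0 to 14900 counts per 1000000 counts (CPM) in Pyr←LP neurons and from 0.923 to 9689 CPM in Pyr←ORBvl neurons, and that of the 3 GABAergic markers from 0 to 880 and from 0 to 906 CPM. The 5 astrocyte markers ranged from 0 to 4263 and from 0 to 5406 CPM, and the 4 oligodendrocyte markers from 0 to 8644 and from 2.81 to 23517 CPM. Their part in the results below was not tested. Pyr←ORBvl replicates 5 and 11, from 2 prefixes, were nearly identical (Pearson r = 0.993 over genes on the log2(CPM + 1) scale, against 0.717 for the next most alike pair). Their counts differed by more than counting noise (chi-square per degree of freedom 3.45, against 6.55 or more for replicate 5 and any other Pyr←ORBvl neuron). The reads are amplified and carry no molecular identifiers, so whether the pair holds the same cDNA cannot be told from this value. Both were kept, and results that rest on them are also given without them, except where said.

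The promoter stretches of 2 genes are shown first, that of Bcl6, the member whose difference passed the threshold, and that of Pou3f3, which was detected in nearly equal numbers in both subtypes. They are the bases just before the RefSeq gene (GRCm38.p6), written 5′ to 3′ on the strand of the gene. Capitals mark the GC box GGGCGG, the CCAAT box CCAAT and the E-box CANNTG, searched on both strands.
Bcl6, minus strand, chr16:23988867-23989102: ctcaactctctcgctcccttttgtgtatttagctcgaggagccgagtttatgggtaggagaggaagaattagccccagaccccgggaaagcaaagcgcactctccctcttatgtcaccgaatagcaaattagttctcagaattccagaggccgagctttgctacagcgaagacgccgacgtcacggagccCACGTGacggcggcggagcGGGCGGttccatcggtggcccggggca
Pou3f3, plus strand, chr1:42695518-42695767: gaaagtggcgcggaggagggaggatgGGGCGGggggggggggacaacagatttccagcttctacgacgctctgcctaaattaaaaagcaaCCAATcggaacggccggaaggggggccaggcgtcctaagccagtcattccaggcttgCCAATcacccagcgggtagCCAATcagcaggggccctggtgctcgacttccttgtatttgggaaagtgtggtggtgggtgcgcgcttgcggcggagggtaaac
The Bcl6 stretch held 1 E-box and 1 GC box, and the Pou3f3 stretch held 3 CCAAT boxes and 1 GC box. Of 32851 RefSeq promoter stretches of 250 bases, 32.7% held the GC box, 33.8% the CCAAT box and 66.2% the E-box. Among the 8 stretches listed for 7 of the 10 genes, 5 lie inside the RefSeq span of their gene, that of Tbr1 among them. The SOX motif AACAAT was found in 1 of the 8 (that of Tbr1) and in 9.42% of all stretches. The POU octamer ATGCAAAT, the T-box motif AGGTGT, the forkhead motif TGTTTAC and the BCL6 motif TTCCTAGAA were in none of the 8, and in 1.6%, 11.8%, 3.17% and 0.347% of all stretches. A match of letters is a description of the sequence and shows no binding.

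Fezf2 (chr14:12338992-12346803) encodes a zinc finger repressor that is needed for the subcerebral fate. Its counts were between 0 and 817 in Pyr←LP neurons (median 0) and between 0 and 944 in Pyr←ORBvl neurons (median 29). Per length of transcript, its level ran from 0 to 521 FPKM (median 0) in Pyr←LP neurons and from 0 to 379 FPKM (median 66.4) in Pyr←ORBvl neurons. The groups overlapped from 0 up to the highest Pyr←ORBvl level, and 3 Pyr←LP neurons lay above it, replicates 19, 6 and 28, with 521, 495 and 404 FPKM. Fezf2 was detected in 42.6% (95% Wilson interval 29.5 to 56.7) of Pyr←LP and 72.7% (58.2 to 83.7) of Pyr←ORBvl neurons. Among neurons with Fezf2 detected, the median level was 38.3 FPKM in Pyr←LP and 103 FPKM in Pyr←ORBvl neurons. Averaged within the 14 prefixes that hold both subtypes, the share with Fezf2 was 30.1 percentage points higher in Pyr←ORBvl neurons (SD 42.8 over prefixes), in this direction in 10 prefixes and the other way in 3.

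**Figure D1:**
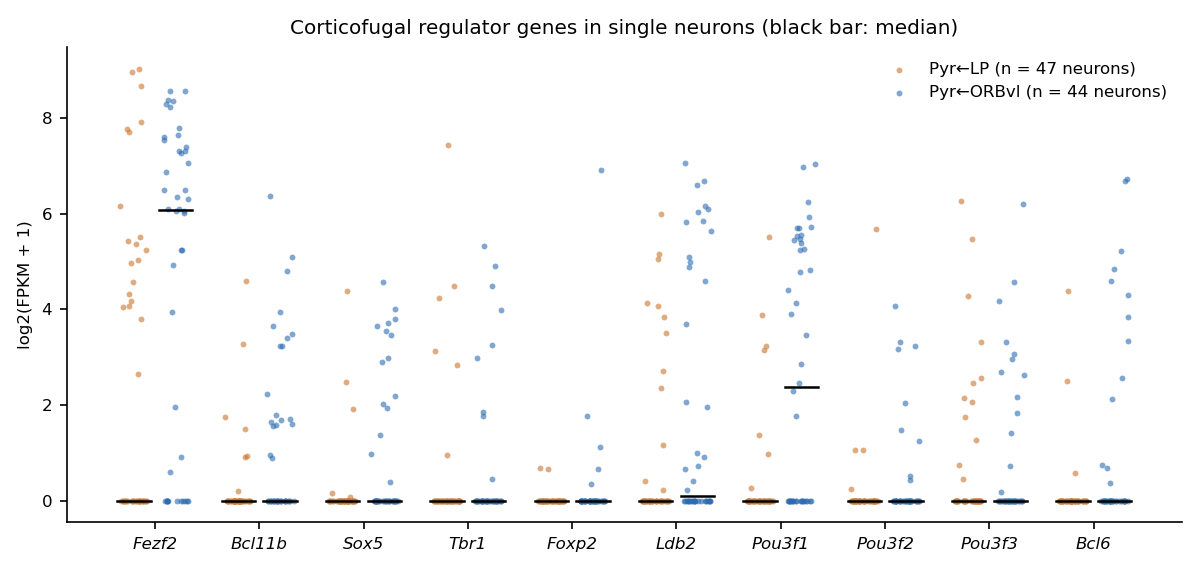
Levels of the 10 regulator genes in single neurons, as log2(FPKM + 1) on the vertical axis, with 1 point per neuron (47 Pyr←LP in orange, 44 Pyr←ORBvl in blue) and a black bar at the median of each subtype. Only Fezf2, Ldb2 and Pou3f1 have a median above 0, in Pyr←ORBvl neurons, and the points of the subtypes overlap for all 10 genes.

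The share of neurons with a gene was tested for every gene detected in at least 10 neurons, with an exact two-sided permutation test that flips the signs of the within-prefix differences. Of 9590 genes, 0 (0%) passed an adjusted p of 0.05, and the smallest adjusted p was 0.70. Without adjustment 585 genes had a p under 0.05, 452 of them (4.71%) with a higher share in Pyr←ORBvl neurons. Of the 9 members that could be tested, 5 were in the latter set: Fezf2 (exact permutation p = 0.0229), Pou3f1 (p = 0.0215), Bcl6 (p = 0.0312), Bcl11b (p = 0.0352) and Ldb2 (p = 0.0425), each with an adjusted p of at least 0.753. Over all 9590 genes the difference was above 0 for 62.9%, with a median of 3.33 points, and over the 9 members the median was 21.5 points. Bcl6, Sox5, Bcl11b and Pou3f1 reached 10 neurons only through Pyr←ORBvl neurons. They were found in 3, 5, 7 and 7 Pyr←LP neurons. The number of members with a low p and their median therefore describe these genes and support no difference of the list. The shift over all genes was not seen in the 38 Pyr←LP and 34 Pyr←ORBvl neurons that reached 100000 counts. In these neurons without thinning, a setting added after seeing the data, the difference was above 0 for 47.6% of 8962 genes (median −0.76 points), and after thinning to 100000 counts it was above 0 for 50% of 7887 genes (median 0 points).

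The members differed in how much of their difference remained in these neurons. For Fezf2 the within-prefix difference at the fixed depth was 11.4 points over the 11 prefixes left, against 30.1 points in all neurons (exact permutation p = 0.259, adjusted p = 0.972). For Ldb2 it was 11.9 points, against 28.8, and for Bcl11b 18.2 points, against 28.5. Without thinning the same neurons gave 15.2 points for Fezf2, 14.4 for Ldb2 and 18.9 for Bcl11b. Most of each decrease thus came with leaving out the shallow neurons, which also took the prefixes compared from 14 to 11. The parts of depth and of the lost prefixes were not separated. Taken without regard to prefix, the thinned share of Fezf2 was 47.2% in Pyr←LP and 70% in Pyr←ORBvl neurons. For Pou3f1 the within-prefix difference at the fixed depth was 37.1 points (exact permutation p = 0.0137, higher in Pyr←ORBvl in 9 of 11 prefixes), for Sox5 23.9 points and for Bcl6 23.6 points (exact permutation p = 0.0312, higher in 6 prefixes and lower in 0). Without thinning the values of the latter 3 were 34.1, 20.5 and 23.5 points (exact permutation p = 0.0312, 0.172 and 0.0625). The adjusted p at the fixed depth was 0.90 for Pou3f1, Sox5 and Bcl6, so none of these differences passed the threshold over all genes.

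**Figure D2:**
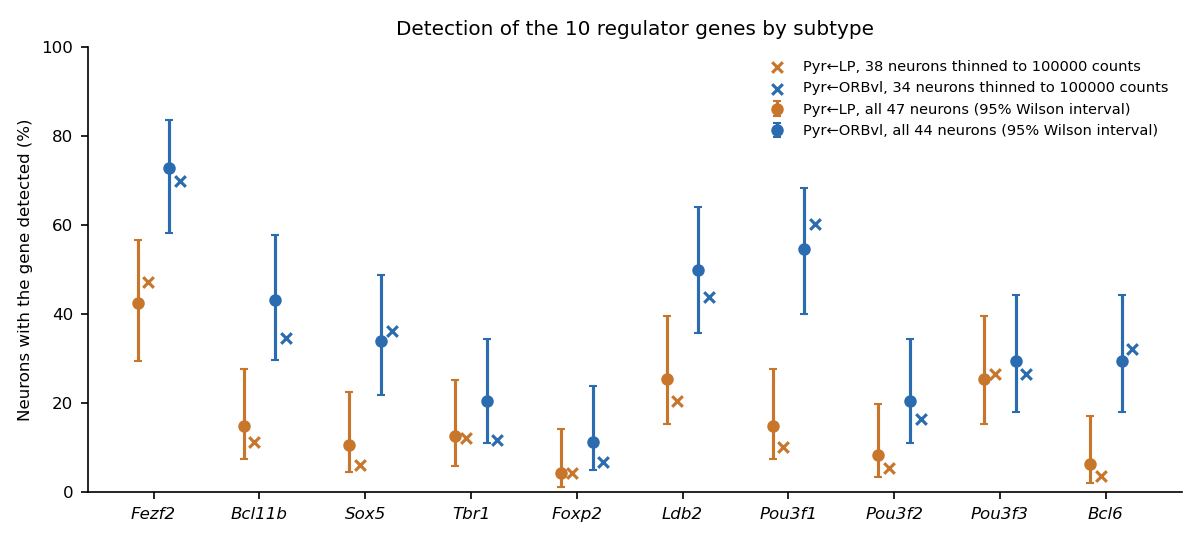
Share of neurons with each gene detected, in percent, by subtype. Circles are all 47 Pyr←LP (orange) and 44 Pyr←ORBvl (blue) neurons with 95% Wilson intervals, and crosses are the expected share in the 38 and 34 neurons that reached 100000 counts, at this fixed depth. The share of Pou3f1 is 14.9% against 54.5% before and 10.2% against 60.2% after thinning, while Pou3f3 is near 26% in both subtypes after thinning.

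Bcl11b (chr12:107910403-108004145) encodes the zinc finger protein CTIP2, a defining protein of corticospinal neurons. It was detected in 7 Pyr←LP neurons, with 0 to 31 counts (median 0), and in 19 Pyr←ORBvl neurons, with 0 to 546 counts (median 0). In the neurons that had it, its level was low, with a median of 1.83 FPKM in Pyr←LP and 3.67 FPKM in Pyr←ORBvl neurons. One Pyr←ORBvl neuron, replicate 15, reached 81.5 FPKM and held 36.3% of the summed level of its subtype. Summed per prefix, the level was above 0 in 6 of 16 Pyr←LP sums and 11 of 15 Pyr←ORBvl sums, with medians of 0 and 18.2 CPM. With a minimum of 5 counts in place of 1, the within-prefix difference in share was 37.1 points, against 28.5 (exact permutation p = 0.00781, adjusted p = 0.646).

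Sox5 (chr6:143828425-144782287), an SRY-box factor that delays the programme of subcerebral neurons in early-born cells, was found in 5 Pyr←LP and 15 Pyr←ORBvl neurons. The Pyr←LP neurons that had it held between 1 and 45 counts, with a median of 3. The Pyr←ORBvl neurons that had it held a median of 34 counts and at most 322. All 15 of the latter had at least 5 counts, against 2 of the 5 Pyr←LP neurons. Ldb2 (chr5:44435955-44799759), a cofactor that binds LIM-domain proteins and marks corticofugal neurons, was found in 12 and 22 neurons, with at most 192 and 686 counts. Among neurons that had Ldb2 the median was 11.8 FPKM in Pyr←LP and 29.6 FPKM in Pyr←ORBvl neurons. Pyr←ORBvl neurons with Ldb2 were deeper (median 827396 counts) than those without it (133754 counts).

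The POU genes differed from each other. Pou3f1 (chr4:124657646-124660655; also SCIP or Oct6), found in L5 subcerebral neurons of the adult cortex, was detected in 7 Pyr←LP neurons (14.9%, interval 7.41 to 27.7) and 24 Pyr←ORBvl neurons (54.5%, interval 40.1 to 68.3). Its counts were between 0 and 66 in Pyr←LP neurons (median 0) and between 0 and 514 in Pyr←ORBvl neurons (median 9). At a minimum of 5 counts it remained in 4 of the 7 and in 23 of the 24. Pou3f2 (Brn2; chr4:22482095-22488366) was detected in 4 and 9 neurons, and Pou3f3 (Brn1; chr1:42695768-42700210) in 12 and 13, both factors best known from upper-layer neurons. A single Pyr←LP neuron, replicate 10, held 95.5% of the summed Pou3f2 level of its subtype, at 50 FPKM. For Pou3f3 the share differed by 4.76 points within prefixes (SD 51.5, exact permutation p = 0.74), a difference well within the spread between prefixes. None of the 3 POU genes was detected in 29 Pyr←LP neurons and in 11 Pyr←ORBvl neurons, and 2 or more were detected in 4 and in 11. The coding regions of the 3 genes are similar and only uniquely aligned reads were counted, so the split of reads between them is uncertain. The kit keeps no strand, and Sox5 spans 6 other RefSeq genes and Foxp2, Ldb2, Pou3f3 and Bcl6 overlap 1 each. Of these, Sox5os3 and Sox5os4 have a row in the table, with counts in 0 neurons.

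Bcl6 (chr16:23965050-23988866), a zinc finger repressor, was detected in 3 Pyr←LP neurons, with 1, 6 and 7 counts. It was detected in 13 Pyr←ORBvl neurons, with a median of 30 counts among them and with 775 and 807 counts in replicates 5 and 11, the near-identical pair. The next highest count was 179. The 13 neurons came from 8 prefixes. Within prefixes the share was higher in Pyr←ORBvl neurons in 6, equal in 8 and lower in 0. Without the pair the within-prefix difference was 15.2 points (exact permutation p = 0.0312), against 16.8 points with it, and the share was then higher in 6 prefixes and lower in 1.

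Tbr1 (chr2:61802863-61814114), a T-box factor of corticothalamic neurons, was detected in 6 Pyr←LP and 9 Pyr←ORBvl neurons, and Foxp2 (chr6:14901349-15441977), a forkhead factor of layer 6 neurons, in 2 and 5. Tbr1 reached 172 FPKM in 1 Pyr←LP neuron, replicate 15, which held 76% of the summed level of its subtype. That neuron was the shallowest of its subtype, with 2545 counts, of which 3 were on Tbr1. Foxp2 reached 422 counts (120 FPKM) in Pyr←ORBvl replicate 16, which held 96.4% of the summed level of its subtype, and at most 10 counts in every other neuron. The within-prefix difference in share was 5.12 points for Tbr1 (exact permutation p = 0.594) and 6.9 points for Foxp2, which was in too few neurons to be tested. Of 7 genes known from layer 6 corticothalamic and subplate neurons, 5 were found in more Pyr←LP than Pyr←ORBvl neurons and 2 in fewer. Hs3st4 was found in 8 and 4, Rprm in 7 and 2, Syt6 in 4 and 0, Cplx3 in 4 and 3, Ntsr1 in 1 and 0, Ctgf in 1 and 4 and Nxph4 in 0 and 1.

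Ordered by mean level per length, Fezf2 came first in both subtypes, at 53 ± 124 FPKM (SD, n = 47) in Pyr←LP and 102 ± 116 FPKM (SD, n = 44) in Pyr←ORBvl neurons. In Pyr←LP neurons Fezf2 was followed by Tbr1 (4.81 ± 25.2 FPKM), Ldb2 (4.19 ± 11.6) and Pou3f3 (3.56 ± 12.8), whose prefix means crossed each other and of which Tbr1 owed its place to replicate 15. Fezf2 was above Tbr1 in 12 of 16 prefixes and below it in 1. In Pyr←ORBvl neurons the next were Pou3f1 (22 ± 31.6 FPKM), Ldb2 (18.9 ± 33.1) and Bcl6 (7.82 ± 22.5). The place of Bcl6 rested on replicates 5 and 11, which held 59.9% of its summed level. Without the pair Bcl6 was the sixth, at 3.28 ± 8.26 FPKM (SD, n = 42), after Bcl11b (5.24 ± 14) and Pou3f3 (3.68 ± 11.8), and with the pair it was above Bcl11b in 5 prefixes and below it in 7. The first 3 genes were Fezf2, Pou3f1 and Ldb2 with and without the pair. Fezf2 was above Pou3f1 in 11 of 15 prefixes and below it in 2, while Pou3f1 was above Ldb2 in 8 and below it in 6, so the latter 2 did not differ beyond their spread. Pou3f1, the second in Pyr←ORBvl neurons, was the fifth in Pyr←LP neurons at 1.65 ± 6.9 FPKM.

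Expression was compared on raw counts summed per subtype and prefix, 16 Pyr←LP and 15 Pyr←ORBvl sums, with edgeR's quasi-likelihood test. The p-values were adjusted by the Benjamini-Hochberg method over the 8267 genes that reached 5 counts in 10 or more neurons. Foxp2 and Pou3f2 did not pass this filter. Of all genes, 17 (0.206%) were called higher in Pyr←ORBvl neurons and 6 (0.0726%) higher in Pyr←LP neurons, the threshold being an adjusted p of 0.05 with more than a 2-fold difference. Of the 8 members tested 1 was called, Bcl6. It passed the filter through Pyr←ORBvl neurons, with 5 counts or more in 2 Pyr←LP and 11 Pyr←ORBvl neurons, as did Bcl11b (4 and 17), Sox5 (2 and 15), Ldb2 (7 and 16) and Pou3f1 (4 and 23). Its summed level was between 0 and 2.74 CPM in Pyr←LP sums (median 0) and between 0 and 447 CPM in Pyr←ORBvl sums (median 2.22), a log2 fold change of 6.98 ± 1.60 (SE; adjusted p = 0.0239). The call was lost without replicates 5 and 11 (log2 fold change 5.63 ± 1.41, adjusted p = 0.0738), without prefix 822 (6.76, adjusted p = 0.0615), without prefix 831 (6.93, adjusted p = 0.0514), with sums of at least 2 neurons (7.10, adjusted p = 0.0563), with the prefix as a block in the fit (4.85 ± 2.03, adjusted p = 0.914) and with limma on log2(FPKM + 1) and log2(FPKM + 0.1) (adjusted p = 0.466 and 0.457). With the pair averaged into 1 neuron the call was kept (adjusted p = 0.0359). Bcl6 fell below the filter without prefix 823 and in the 83 neurons left by the study's exclusion rule.

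Without adjustment, 198 genes (2.4%) had a p under 0.05 and a higher level in Pyr←ORBvl sums, and 5 of the 8 members were among them, Bcl6, Pou3f1, Sox5, Bcl11b and Ldb2. These are the 5 that passed the filter through Pyr←ORBvl neurons, so their number and the median over the members describe these genes and support no difference of the list. For Pou3f1 the sums were between 0 and 33.9 CPM (median 0) in Pyr←LP and between 0 and 371 CPM (median 48.4) in Pyr←ORBvl neurons, a log2 fold change of 4.42 ± 1.36 (adjusted p = 0.269, edgeR). For Sox5 the log2 fold change was 4.10 ± 1.43 (adjusted p = 0.461), for Bcl11b 3.90 ± 1.42 (adjusted p = 0.557) and for Ldb2 3.12 ± 1.17 (adjusted p = 0.639). With DESeq2 Pou3f1 also passed the threshold (log2 fold change 4.56, adjusted p = 0.0083). Fezf2, the most abundant member, had a log2 fold change of 1.00 ± 0.84 (adjusted p = 0.999), with medians of 78.2 CPM over Pyr←LP and 256 CPM over Pyr←ORBvl sums. Tbr1 (0.06 ± 1.35) and Pou3f3 (−0.47 ± 1.28) had fold changes smaller than their standard errors. The median log2 fold change was 3.51 over the 8 members and 0.06 over all genes tested.

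**Figure D3:**
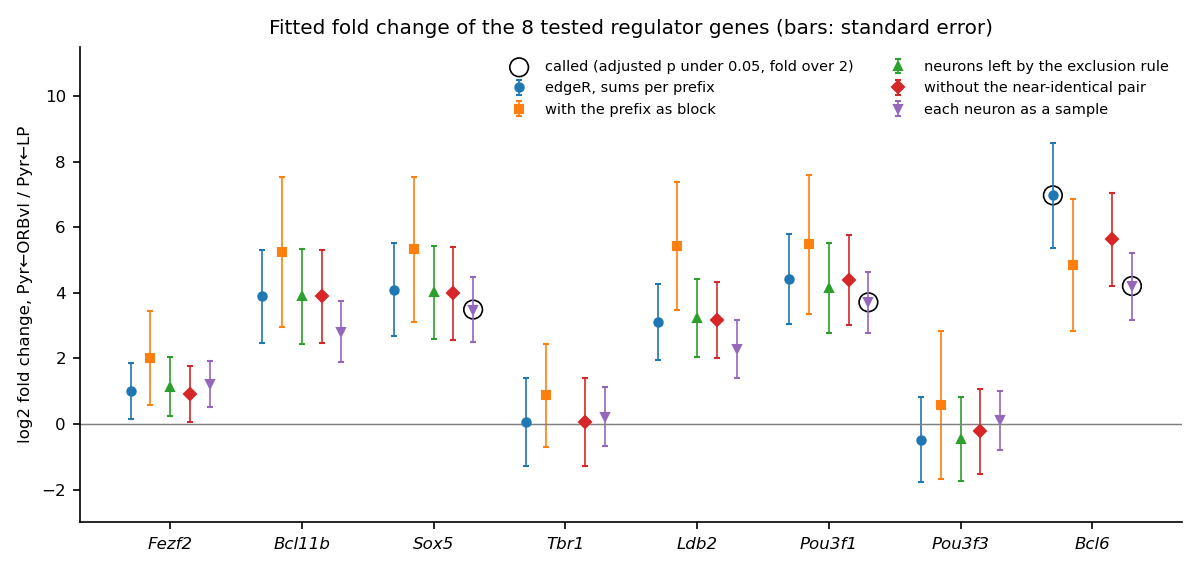
Fitted log2 fold changes, Pyr←ORBvl over Pyr←LP, of the 8 members that passed the filter, with standard errors, under 5 ways of treating the neurons. Open circles mark values past the threshold; with each neuron as a sample these are not used as calls, because neurons are not replicates. The values of Bcl11b, Sox5, Ldb2, Pou3f1 and Bcl6 lie above 0 in each fit shown, and that of Pou3f3 lies on either side of 0. Bcl6 and Tbr1 have no value in the neurons left by the exclusion rule.

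Within single neurons, the 10 genes were found in different numbers. Pyr←LP neurons had between 0 and 6 of them (median 1) and Pyr←ORBvl neurons between 0 and 7 (median 4). At least 3 were found in 14 Pyr←LP neurons (29.8%) and in 31 Pyr←ORBvl neurons (70.5%). None was found in 11 and in 4 neurons. The mean number was higher in Pyr←ORBvl neurons in 11 of 14 prefixes and lower in 3. The number was higher in neurons with more genes detected (Pearson r = 0.709 in Pyr←LP and 0.756 in Pyr←ORBvl neurons, a description over neurons that share prefixes). After thinning to 100000 counts the expected number was 1.48 ± 1.34 (SD, n = 38) in Pyr←LP and 3.39 ± 1.5 (SD, n = 34) in Pyr←ORBvl neurons.

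**Figure D4:**
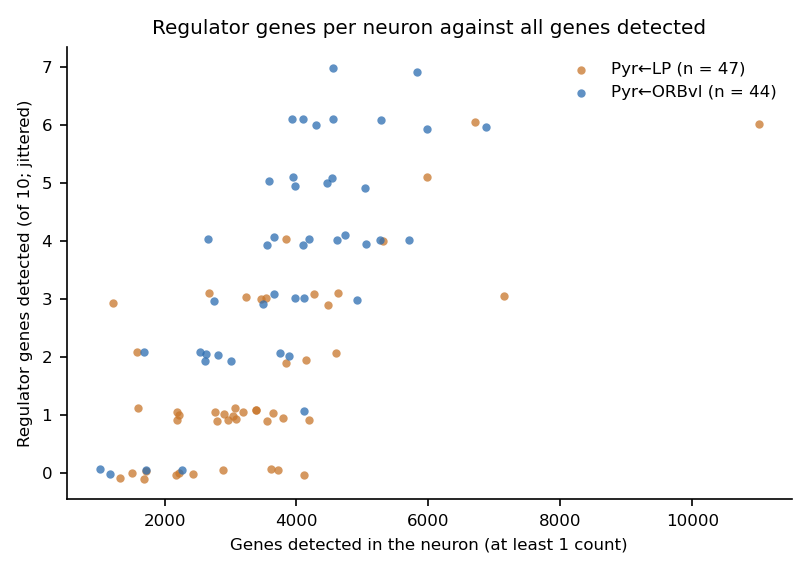
Number of the 10 regulator genes detected in each neuron (vertical axis, jittered) against the number of all genes detected in it (horizontal axis), 47 Pyr←LP neurons in orange and 44 Pyr←ORBvl neurons in blue. Both subtypes rise to the right, and the 11 Pyr←LP neurons with none of the genes include some with more than the median of 3241 genes.

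Pyr←ORBvl neurons had Fezf2 together with other members, and 11 of 20 Pyr←LP neurons with Fezf2 had it alone. Of the 45 pairs of genes, 7 were never found together in a Pyr←LP neuron. The product of the shares of the 2 genes was 0.362% to 1.58% for these 7 and so under 1 neuron of 47. The share with both genes was above the product of the single shares for 33 of 45 pairs in each subtype. Fezf2 and Pou3f1 were both found in 2 of 47 Pyr←LP neurons (4.26%, interval 1.17 to 14.2) and in 21 of 44 Pyr←ORBvl neurons (47.7%, interval 33.8 to 62.1). Fezf2 and Bcl11b were both found in 3 and 15 neurons, Fezf2 and Ldb2 in 8 and 20, Fezf2 and Sox5 in 2 and 11, and Fezf2 and Bcl6 in 1 and 12. In Pyr←ORBvl neurons these shares lay near the products for Fezf2 with Bcl11b (34.1% against 31.4%) and with Sox5 (25% against 24.8%), and above them with Pou3f1 (47.7% against 39.7%), Ldb2 (45.5% against 36.4%) and Bcl6 (27.3% against 21.5%; 23.8% of neurons without the near-identical pair). In Pyr←LP neurons the share with Fezf2 and Pou3f1 was below its product of 6.34%, and that with Fezf2 and Ldb2 (17%) above its product of 10.9%. Fezf2, Bcl11b and Pou3f1 were all found in 9 Pyr←ORBvl neurons (7 without the near-identical pair) and in 0 of 47 Pyr←LP neurons, which allows a share of up to 6.38% when the limit of a count of 0 is taken as 3 neurons. Co-detection was not tested, because neurons are not replicates and the counts of a neuron share its depth.

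Among neurons with Fezf2, the median depth was 309958 counts in 20 Pyr←LP neurons and 651898 counts in 32 Pyr←ORBvl neurons. Pou3f1 was found in 2 of these 20 (10%, interval 2.79 to 30.1) and in 21 of these 32 (65.6%, interval 48.3 to 79.6). In the 18 and 26 of them that reached 100000 counts, at this fixed depth, the expected share of Pou3f1 was 7.97% and 67.5%. For Bcl6 the thinned shares were 5.51% and 38.4%, for Sox5 6.78% and 35.7%, for Bcl11b 14.4% and 34%, and for Ldb2 37.4% and 53.5%. Tbr1 was at 14.6% and 15.4%, and Foxp2 at 9.29% and 3.05%. The contrast between the subtypes among neurons with Fezf2 was widest for Pou3f1. Replicates 5 and 11, the near-identical pair, are among the 26 Pyr←ORBvl neurons. Both carried Pou3f1, Bcl6, Sox5 and Bcl11b. The Pyr←ORBvl shares here and in the next paragraph are given with the pair only.

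Within Pyr←ORBvl neurons, Pou3f1 was found in 21 of 32 neurons with Fezf2 and in 3 of 12 without it (25%, interval 8.89 to 53.2). Ldb2 was found in 20 of 32 and in 2 of 12, and Tbr1 in 9 of 32 and in 0 of 12. Bcl11b was found in 15 of 32 and 4 of 12, and Sox5 in 11 of 32 and 4 of 12. The 12 neurons without Fezf2 were shallower, with a median of 133754 counts. At the fixed depth, in the 26 neurons with and 8 without Fezf2 that reached it, Pou3f1 was at 67.5% and 36.6%, Ldb2 at 53.5% and 12.5%, and Tbr1 at 15.4% and 0%. Bcl11b (34% and 36.4%) and Sox5 (35.7% and 37.5%) were then no more frequent with Fezf2 than without it. In Pyr←LP neurons depth went the other way, 457823 counts without Fezf2, and Pou3f1 was found in 5 of 27 neurons without it. Ldb2 was found in 8 of 20 Pyr←LP neurons with Fezf2 and in 4 of 27 without it.

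**Figure D5:**
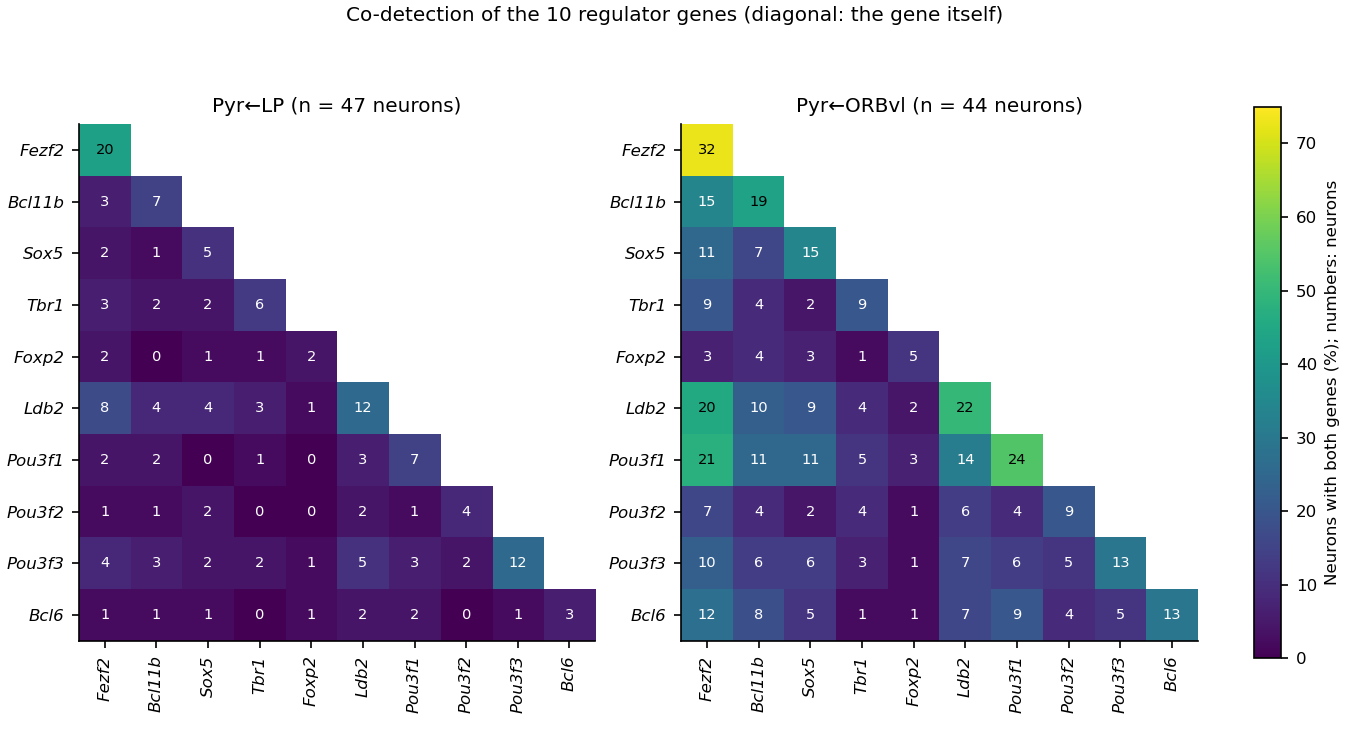
Number of neurons in which both genes of a pair were detected, in 47 Pyr←LP (left) and 44 Pyr←ORBvl neurons (right); the diagonal gives the neurons with the gene itself and the colour the percentage of neurons. The Fezf2 column holds 2 neurons with Pou3f1 and 3 with Bcl11b on the left, and 21 and 15 on the right.

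Other genes of the L5 programmes were read from the same fit. Of 14 genes of subcerebral neurons, 7 could be tested and 1 was called (0.206% of all genes were called in this direction), Fam84b, higher in Pyr←ORBvl neurons (detected in 1 Pyr←LP and 14 Pyr←ORBvl neurons, log2 fold change 8.15 ± 1.63, adjusted p = 0.00323, edgeR). The median log2 fold change of the 7 was 1.05. Of 8 genes of L5 intratelencephalic neurons, 6 could be tested and 1 was called (0.0726% of all genes in this direction), Whrn, lower in Pyr←ORBvl neurons (detected in 10 and 1 neurons, log2 fold change −8.04 ± 1.60, adjusted p = 0.00323, edgeR). The median of the 6 was −2.69. Fam84b and Whrn each passed the filter through the subtype in which they were high. DESeq2 called 1 of the subcerebral and 0 of the intratelencephalic genes. Of 12 partner regulators, 10 were tested and 0 were called by edgeR or DESeq2, 0 with an unadjusted p under 0.05 in edgeR. The smallest unadjusted p-values were those of the nuclear receptor Nr4a2 (log2 fold change 2.05 ± 1.41) and the LIM-only factor Lmo4 (−1.11 ± 0.96).

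Of 4 near-projecting genes 1 could be tested, Sla2 (log2 fold change 0.32 ± 1.14), and of 7 layer 6 and subplate genes 1 could, Hs3st4 (−3.13 ± 1.38, unadjusted p = 0.0265, adjusted p = 0.999). Neither was called by edgeR or DESeq2. Over all 91 neurons, the genes whose level followed Fezf2 most closely were Bdnf, Camk2b, Dtna, Supt20 and Gtpbp6, with Spearman correlations of log2(FPKM + 1) between 0.446 and 0.419. For Bcl11b they were Vrk2, a row whose symbol the file gives as 8-Sep, Usp31, Ndufv1 and Slain1, between 0.518 and 0.465. These are descriptions over neurons that share prefixes and differ in depth. Among the 28 pairs of the 8 members that passed the filter of the fit, the highest correlation was that of Bcl6 with Pou3f1 (0.389), followed by Fezf2 with Ldb2 (0.315). Without replicates 5 and 11 these were 0.331 and 0.333, and 2 of the 5 genes named for Fezf2 (Bdnf and Dtna) and 3 of the 5 for Bcl11b (Vrk2, 8-Sep and Ndufv1) were still among the 5 closest.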

How the data were processed

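Single L5 Pyrs were amplified with a Smart-seq2-based kit, which carries no molecular identifiers and keeps no strand. The authors aligned the reads to GRCm38 (mm10) with STAR 2.5.3 (per the submitters' processing notes), removed PCR duplicates and deposited uniquely aligned read counts per RefSeq gene, without normalization. The deposited FPKM values are 0 exactly where the count is 0, and how they were made is not given in the sources used here. They equal counts divided by a fixed gene length and by the neuron's total. Spans of genes are from RefSeq (GRCm38.p6); the length behind the FPKM of Pou3f1 (3849 bases) exceeds its span (3010 bases), so the annotations differ.

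Counts were summed per subtype and recording prefix, since the mouse of a neuron is not given. Sums were tested with edgeR 4.0.16 (TMM, robust quasi-likelihood) in R 4.3.3, and p-values measure the spread between prefixes only. SE is the log2 fold change divided by the square root of F. DESeq2 1.42.0 and limma 3.58.1 were alternatives, the latter on log2(FPKM + 1) and log2(FPKM + 0.1). Detection was computed with numpy 2.4.6, pandas 2.3.3 and scipy 1.17.1, thinning from the hypergeometric distribution. Wilson intervals cover the sampling of neurons only. The scripts were tested on simulated data. The exclusion rule of the methods, at least 500 counts and a sum of log2(count + 1) over Slc32a1, Gad1 and Gad2 of at most 7, left 83 neurons (44 Pyr←LP, 39 Pyr←ORBvl) on these counts and was an alternative. The study states fewer Pyr←LP neurons after its quality control. Its methods removed neurons for low counts, while no deposited neuron had under 500 counts. They also removed fewer neurons for inhibitory neuron genes than the rule sets aside on these counts. Genes named beside the 10 members followed a rule for the subcerebral, intratelencephalic, partner, near-projecting and layer 6 lists: every called gene of a list, otherwise the 2 with the smallest p, and the 5 genes most correlated with Fezf2 and with Bcl11b; cell type markers and the other layer 6 genes were named outside it, after their values were seen. The members and lists were chosen with earlier results of these data known. Recordings and the rest of the series' genes are not analysed here.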

Additional observations from a re-analysis of the deposited data

How the results depend on the processing

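The detection differences of Fezf2, Bcl11b, Sox5, Tbr1, Foxp2, Ldb2, Pou3f1 and Bcl6 were above 0 under each alternative, except Tbr1 in the neurons of at least 100000 counts without thinning (−0.76), an alternative chosen after seeing the data, and the count of genes called on detection was 0 under each, leave-one-out included. Leaving out each of the 17 prefixes in turn gave differences of 24.7 to 35 points for Fezf2, 22.9 to 33.2 for Bcl11b, 15.5 to 26.3 for Sox5, 1.67 to 10.6 for Tbr1, 3.59 to 8.97 for Foxp2, 23.3 to 35.6 for Ldb2, 22.7 to 31.4 for Pou3f1, −6.79 to 4.74 for Pou3f2, −2.56 to 12.8 for Pou3f3 and 11.9 to 18.1 for Bcl6. Reversals were 6.51 points for Pou3f2 after thinning, 2.86 with no replicate block and 4.55 in the neurons of at least 100000 counts without thinning (main −2.74), and for Pou3f3 −8.10 at 5 counts, −3.52 after thinning and −0.76 in the same neurons without it; without single prefixes they were 4.74 for Pou3f2 (826), and −0.64 (914) and −2.56 (916) for Pou3f3. Co-detection with Fezf2 stayed within its interval except for Foxp2 in Pyr←ORBvl neurons after thinning (2.33%) and Pou3f2 there at 5 counts (6.82%).

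The fit was less stable. Beside 17 genes higher in Pyr←ORBvl and 6 in Pyr←LP neurons, DESeq2 called 36 and 28, RLE size factors 18 and 8, the exclusion rule 9 and 8, each neuron as a sample 88 and 42, sums of at least 2 neurons 11 and 5, and limma 3 and 1 with FPKM + 1, 4 and 1 with FPKM + 0.1. Leaving out prefixes gave 5 to 19 and 1 to 8, with 5, 8, 11, 7 and 10 higher in Pyr←ORBvl neurons without 822, 823, 830, 831 and 914, and 1 without 915, 2 without 913 and 3 each without 727, 8-27 and 907 higher in Pyr←LP neurons. Without a gene filter the counts were 1923 and 2062 of 18674 genes, most of them sparse, so its calls are not used; in it Sox5 (4.08), Ldb2 (3.07) and Pou3f1 (4.38) passed, as did Foxp2 (5.25). Without replicates 5 and 11, an alternative chosen after seeing the data, the counts were 11 and 7, and with no gene filter as well 1876 and 2115, with Ldb2 (3.14), Pou3f1 (4.31), Bcl6 (5.58) and Foxp2 (5.30) past the threshold. Pou3f1 also passed with DESeq2 (4.56) and, with each neuron as a sample, Pou3f1 (3.71) and Sox5 (3.49) did; neurons of a prefix are not replicates, so p-values of that setting are too small and its calls are not used. Bcl6 lost its call with sums of at least 2 neurons (7.10), without replicates 5 and 11 (5.63) and with limma (0.73 and 1.29). Tbr1 turned to −0.29 with DESeq2, −0.025 without replicates 5 and 11 and no filter, and −0.011 without prefix 826. Pou3f3 turned to 0.12 with each neuron as a sample, 0.11 and 0.22 with limma, and 0.34 and 0.03 without prefixes 727 and 915.

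With the recording prefix as a replicate block the fit called 2 and 1 genes and no member: Bcl6 was 4.85 ± 2.03 (adjusted p = 0.914) and Pou3f3 turned to 0.58. Sums of the same prefix deviated together little (correlation −0.03 to 0.09 over 14 pairs, 0 above 0.1). The median was 0.037, against −0.0015 for sums of different prefixes, and 4 of the 14 pairs correlated best with their own prefix. The main fit took no covariate, while the detection test took differences within prefixes. Leave-one-out log2 fold changes were 0.69 to 1.44 for Fezf2, 2.81 to 4.59 for Bcl11b, 3.56 to 6.24 for Sox5, −0.011 to 0.21 for Tbr1, 2.70 to 3.58 for Ldb2, 4.07 to 5.31 for Pou3f1, −0.96 to 0.34 for Pou3f3 and 6.76 to 7.47 for Bcl6. Tbr1 had a value in 11 and Bcl6 in 16 of the 17. The causes of these changes were not tested. At these depths, a gene not found in a neuron may still be expressed in it.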

Other observations

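The neurons that the exclusion rule sets aside held members too. Of 3 such Pyr←LP neurons, replicate 34 had 6 of the 10 genes and 11013 detected genes in all, the most of its subtype, and replicates 6 and 29 had 1 each, Fezf2 with 211 counts and Bcl11b with 4 counts. The 5 Pyr←ORBvl neurons, replicates 3, 5, 11, 26 and 29, had 4, 6, 5, 6 and 6 of the genes. Bcl6 was found in 4 of these 5, with 179, 775, 807 and 37 counts. In the 83 neurons left, Bcl6 was found in 3 of 44 Pyr←LP (6.82%) and 9 of 39 Pyr←ORBvl neurons (23.1%), Pou3f1 in 7 (15.9%) and 20 (51.3%), and Fezf2 in 18 (40.9%) and 27 (69.2%).

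The 11 Pyr←LP neurons with none of the 10 genes had between 4214 and 1091056 counts, 6 of them at least 100000, and Slc17a7 was found in 8 of them. Of the 4 such Pyr←ORBvl neurons, 1 had at least 100000 counts. The 4 Pyr←LP neurons with Pou3f3 alone were the only repeated set in that subtype beside Fezf2 alone and none. In Pyr←ORBvl neurons 38 different sets of genes occurred in 44 neurons, against 24 in 47 Pyr←LP neurons.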
